A study of Mus musculus with 11 samples.

Results

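The genes described here are 9 CC chemokines, Ccl2, Ccl5, Ccl7, Ccl8, Ccl9, Ccl11, Ccl19, Ccl20 and Ccl25, together with Cx3cl1 (fractalkine), as they were measured in sorted mouse skin fibroblasts. They were chosen by name, and each of the 10 symbols matched 1 of the 47643 rows of the deposited gene table. Poly-A RNA sequencing had been performed on fibroblasts from normal back skin (NS) and from excisional wounds 5 days after injury (5dw), taken from mice overexpressing activin under the keratin 14 promoter (Act) and from their wild-type littermates (WT). The comparisons ask how fibroblasts change with wounding and with excess activin.

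The 11 libraries fell into WT NS (n = 3), Act NS (n = 3), WT 5dw (n = 3) and Act 5dw (n = 2, replicates 1 and 3). The authors had excluded a sample of Act 5dw at quality control, which by the remaining labels was replicate 2. All mice were 9 to 12 weeks old and of a mixed background, 50% CD-1 and 50% C57Bl/6. The K14-Act transgene is expressed by keratinocytes, so the fibroblasts of Act mice were exposed to activin made by neighbouring cells. Each library pooled RNA from 3 mice, so that the spread between libraries is a spread between pools. Fibroblasts were live cells that stained for CD140a and not for CD45, CD3, CD11b or F4/80, and both tissues had been digested with an enzyme for 1 h before the sort. Libraries were made from 100 ng of RNA for NS and 200 ng for 5dw, and this difference cannot be told apart from the effect of wounding.

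Chemokines are small secreted proteins that attract leukocytes by binding G-protein-coupled receptors, and they are held on heparan sulphate chains of the tissue. CC chemokines such as Ccl2 and Ccl7 recruit monocytes to injured skin, Ccl11 (eotaxin) recruits eosinophils, and Ccl19 guides T cells and dendritic cells that carry Ccr7. Fractalkine differs in being made as a membrane-anchored protein, which proteases can release.

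Depth, back-calculated from the RPKM values and the annotated exon lengths, was 18649309 to 39702113 mapped reads per library, and WT 5dw libraries were the deepest, with at least 38740383 mapped reads each. Fibroblast markers were present, with 8 of 8 fibroblast genes (Pdgfra, Col1a1 and others) above 1 RPKM in every library and a summed level of 10617 to 25447 RPKM. All 8 pan-immune markers stayed under 1 RPKM in all 11 libraries, and so did 6 of 9 macrophage and monocyte, 4 of 6 neutrophil and 7 of 8 T cell and NK cell markers. Of the others, Cd68, Csf1r and Lyz2 reached 12.0, 4.48 and 4.00 RPKM, and S100a9 and S100a8 reached 16.2 and 5.09 RPKM in 5dw. The 6 neutrophil markers summed to 0.299 to 1.18 RPKM in NS and 2.98 to 21.8 RPKM in 5dw. The eighth T cell marker, Cd3e, reached 105 RPKM in a 5dw library while Cd3d and Cd3g did not exceed 0.643 and 0.592 RPKM. The 8 T cell and NK cell markers summed to 3.27 to 34.5 RPKM in NS and 57.3 to 106 RPKM in 5dw. Keratinocyte transcripts were present throughout, with 10 markers summing to 989 to 3870 RPKM in NS and 156 to 1386 RPKM in 5dw. The summed markers of dendritic and Langerhans cells (13.2 to 41.2 RPKM in NS, 4.37 to 7.95 RPKM in 5dw), of pericytes and smooth muscle (10.6 to 14.9 and 4.36 to 8.98 RPKM) and of endothelium (6.48 to 11.6 and 16.3 to 18.3 RPKM) also separated the tissues. The 10 genes of the dissociation response (Fos, Jun, Hspa1a and others) summed to 5476 to 9036 RPKM in NS and 4896 to 6154 RPKM in 5dw. In bulk RNA of this kind, fewer cells that express a gene and less of its RNA per cell cannot be told apart.

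The levels of the 10 genes spanned more than 3 orders of magnitude. Values are RPKM, that is, read numbers divided by the length of the gene and by the mapped reads of the library, which allows a comparison between genes. Ccl2 and Ccl7 lay at the top in every library, at ranks 33 and 43 of 47643 genes by mean level in NS and at ranks 19 and 21 in 5dw. Together they made up 78.5% to 88.9% of the summed level of the 10 genes in NS and 90.9% to 93.0% in 5dw. The 10 genes together held 0.452% to 1.15% of all RPKM in NS and 0.827% to 1.29% in 5dw. Ccl2 and Ccl7 were not separated from each other by level, since Ccl7 was between 0.760 and 1.07 times Ccl2 in the same library.

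**Figure D1:**
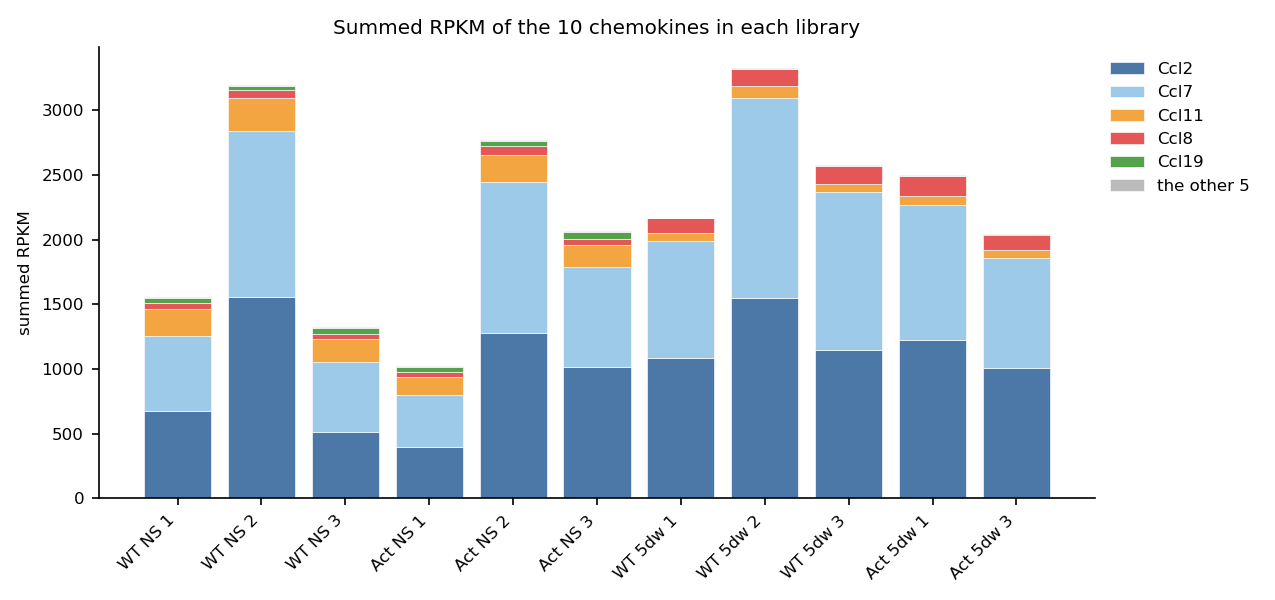
Stacked bars give the summed RPKM of the 10 chemokine genes in each of the 11 libraries, coloured by gene. Ccl2 and Ccl7 fill most of every bar, the totals run from 1020 to 3323 RPKM, and the Ccl11 segment is taller in the 6 NS libraries than in those of 5dw.

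Below this pair, the order of the levels differed between the tissues. In NS, Ccl11 came next at 135 to 254 RPKM and did not overlap with any other member. Ccl8 (37.8 to 72.2 RPKM) and Ccl19 (28.0 to 55.3 RPKM) overlapped with each other, and so did Cx3cl1 (2.33 to 4.67 RPKM) and Ccl20 (0.335 to 5.64 RPKM). Ccl9, Ccl25 and Ccl5 had at most 1.22 RPKM in NS. In 5dw, Ccl8 came next at 111 to 153 RPKM, ahead of Ccl11 at 59.0 to 95.6 RPKM, with no overlap between them. Ccl19 then lay at 1.01 to 2.35 RPKM, a range it shared with Ccl9 at 1.06 to 1.65 RPKM, while Cx3cl1, Ccl20, Ccl5 and Ccl25 had at most 1.19 RPKM and overlapped with each other. Reads behind these values ran from 10724 to 68316 per library for Ccl2 but only from 2 to 29 for Ccl5.

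**Figure D2:**
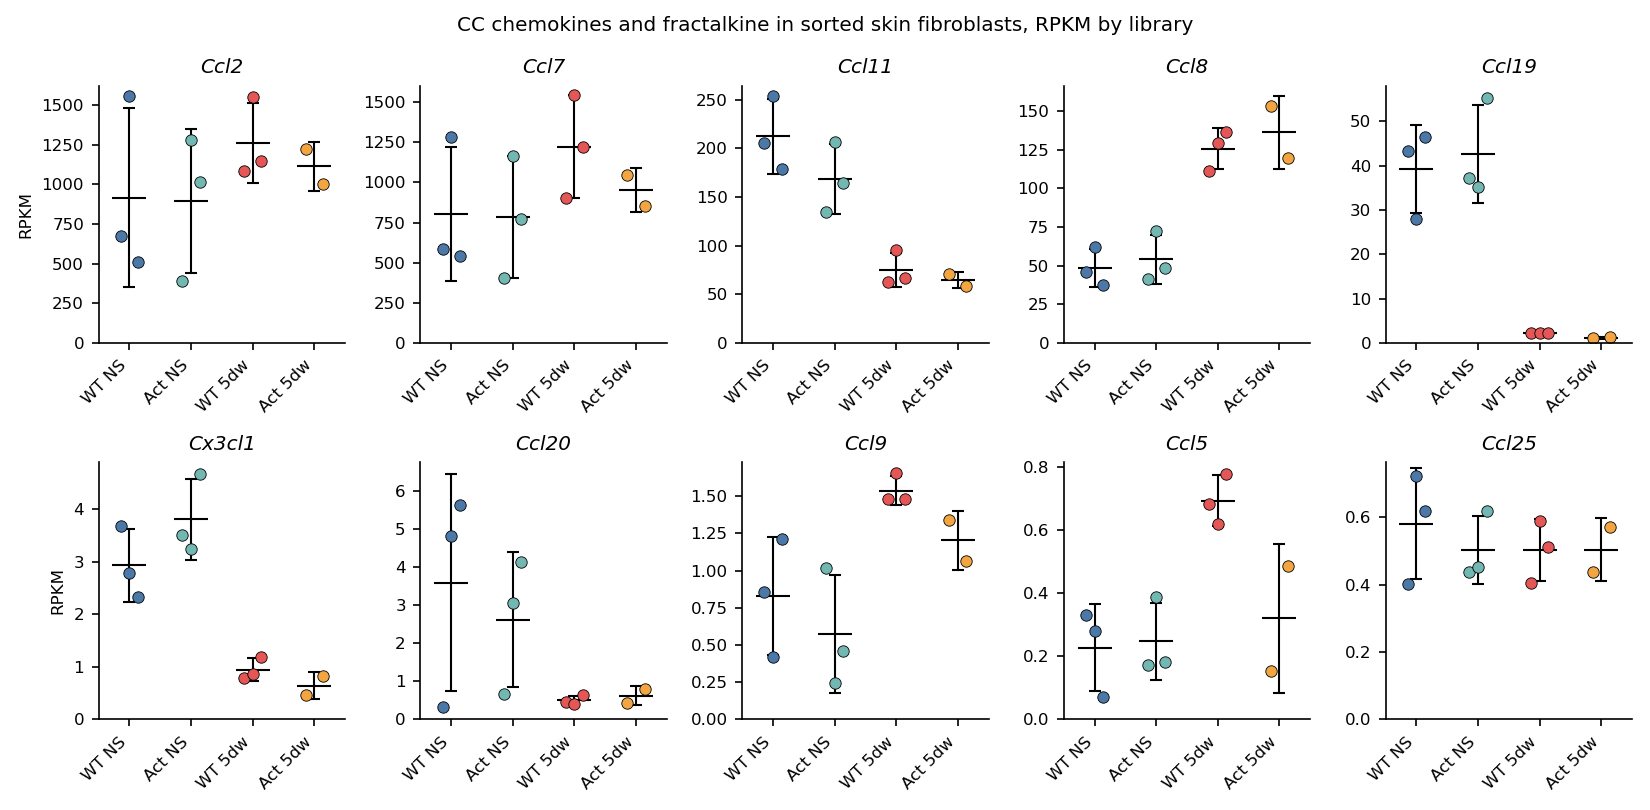
Each panel shows 1 gene with its own linear axis in RPKM. Points are libraries, horizontal bars are group means and error bars are the SD (n = 3, and n = 2 for Act 5dw). The NS and 5dw points do not overlap for Ccl11, Ccl8, Ccl19 and Cx3cl1, whereas for Ccl2 and Ccl7 they do. Of all genes tested, 47.3% did not overlap between the tissues.

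Of the 10 genes, 8 passed the filter of at least 1 RPKM in at least 2 libraries and were tested among 11979 genes, and 2 (Ccl5 and Ccl25) did not pass. Ccl20 and Cx3cl1 passed through NS libraries alone (1 or no 5dw library reached 1 RPKM), so that the number that passed is not itself a result and a lower level of both in wounds is part of how they passed. Between WT 5dw and WT NS, limma-trend on log2(RPKM + 0.5) called 1 of the 8 higher (Ccl8) and 3 lower (Ccl11, Ccl19 and Cx3cl1) at an adjusted p under 0.05. Over all genes tested, 9.45% were called higher and 48.8% lower in this comparison. Between Act 5dw and Act NS, the same 4 genes were called in the same directions, against 9.04% of all genes higher and 36.5% lower. With RPKM as deposited, the share of these chemokines called lower was thus near or below that of all genes, also with Cx3cl1 counted. The wounding comparisons of WT and Act contrast different libraries, but both come from 1 fit of all 11 libraries with a shared estimate of spread. Their calls are therefore not independent.

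The median gene moved by -0.40 (log2) in WT and -0.31 in Act, and the balance of calls over all genes depended on the scaling between libraries. With RPKM as deposited, 1132 genes were higher and 5846 lower in WT 5dw, whereas median-ratio scaling gave 2684 higher and 2655 lower. For Act 5dw the numbers were 1083 higher and 4376 lower as deposited, and 2384 and 2492 after scaling. The scaled shares were 22.4% higher and 22.2% lower in WT and 19.9% and 20.8% in Act. On the scaled values the chemokine genes gave 3 higher and 3 lower calls in WT and 2 higher and 3 lower in Act. The additional higher calls were Ccl7 (WT) and Ccl9 (both genotypes). The share called lower on these values, 3 of 8 with Cx3cl1 counted, was above that of all genes. Ccl8, Ccl11, Ccl19 and Cx3cl1 were called in the same direction under either scaling.

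**Figure D3:**
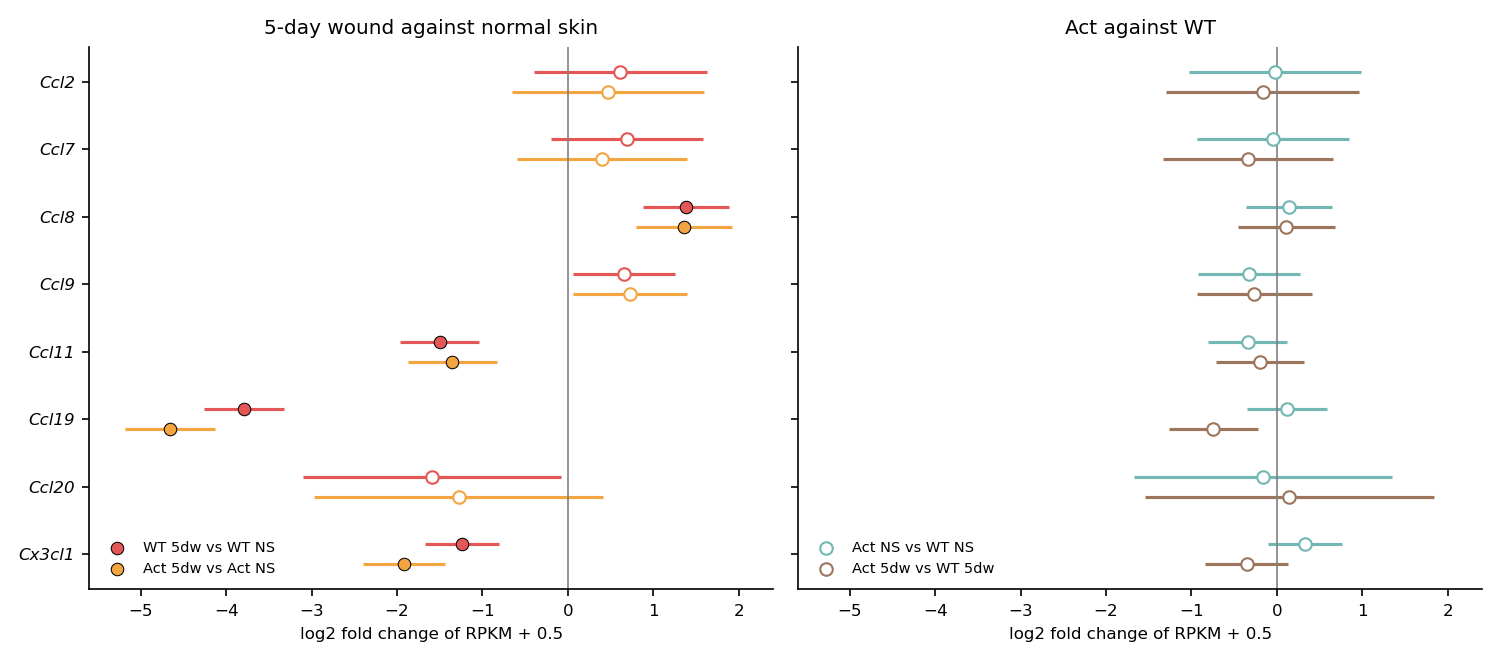
Points are log2 fold changes of RPKM + 0.5 for the 8 tested genes and lines are 95% confidence intervals from limma. Filled points passed an adjusted p of 0.05. Left, 5dw against NS in WT (red) and Act (orange), with Ccl19 at -3.79 and -4.66. Right, Act against WT in NS (teal) and 5dw (brown), where no point is filled.

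Ccl8 was the tested member called higher with wounding in both genotypes. In mice it attracts Th2 cells that carry Ccr8, and it lies at the end of a row of monocyte and eosinophil chemokine genes on chromosome 11. Its RPKM was 46.2, 62.1 and 37.8 in WT NS and 111, 129.5 and 137 in WT 5dw. In Act mice it was 41.6, 72.2 and 48.3 in NS and 153 and 119.7 in 5dw. Every 5dw library lay above every NS library, the closest being 72.2 and 111 RPKM. The rise was 2.61-fold in WT (log2FC 1.38, SE 0.23, limma adjusted p = 5.78e-04) and 2.56-fold in Act (log2FC 1.36, SE 0.26, adjusted p = 1.80e-03), and it was larger on median-ratio scaled values, at log2FC 1.84 and 1.71.

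The set of RefSeq (GRCm38.p6) upstream windows used here listed 6 of the 10 genes. For the remaining genes no other source was searched. The 250 bases before the start of Ccl8, on the plus strand at chr11:82114935-82115184, are printed because Ccl8 was the tested member called higher in both genotypes. Capitals mark the letters TATAAA, which end 27 bases before the start and were found on either strand in 12.4% of the 32851 upstream windows of the same length. Letters of AP-1 (TGANTCA), STAT (TTCNNNGAA), C/EBP (TTGCNNAA) and NF-kB motifs were searched on both strands in the same way and did not occur in it.
Ccl8: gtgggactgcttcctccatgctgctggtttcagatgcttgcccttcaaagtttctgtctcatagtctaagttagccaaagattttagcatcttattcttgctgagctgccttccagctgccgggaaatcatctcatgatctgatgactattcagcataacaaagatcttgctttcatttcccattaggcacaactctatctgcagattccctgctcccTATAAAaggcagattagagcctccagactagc

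Ccl11 fell with wounding, although it sits between Ccl7 and Ccl8 on the same chromosome. It had 205, 254 and 179 RPKM in WT NS and 63.1, 95.6 and 67.3 RPKM in WT 5dw. The Act libraries had 135, 206 and 164 RPKM in NS and 70.5 and 59.0 RPKM in 5dw. The lowest NS library (135 RPKM) lay above the highest 5dw library (95.6 RPKM). Levels were 2.83-fold lower in WT 5dw (log2FC -1.50, SE 0.21, adjusted p = 2.16e-04) and 2.56-fold lower in Act 5dw (log2FC -1.36, SE 0.24, adjusted p = 1.15e-03). The median-ratio scaling reduced this to -1.04 in WT and -1.0 in Act on the log2 scale, with adjusted p = 2.37e-03 and 6.38e-03, within a range over all alternatives of 7.55e-05 to 2.37e-03 in WT and 5.82e-04 to 0.0171 in Act.

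Ccl2, the main monocyte attractant acting on Ccr2, differed several-fold between libraries of NS. It was at 673, 1559.6 and 512 RPKM in WT NS and at 1085, 1549.6 and 1144 RPKM in WT 5dw. In Act it was at 394, 1279.8 and 1017 RPKM in NS and 1221 and 1005 RPKM in 5dw. The replicate 2 library was the highest of its group in WT NS, Act NS and WT 5dw. The NS range enclosed all 5dw libraries, and the 5dw minus NS difference was 0.61 in WT (log2, 95% CI -0.40 to 1.62, adjusted p = 0.267) and 0.47 in Act (95% CI -0.66 to 1.60, adjusted p = 0.475). Both intervals include 0 and a difference of 1 on the log2 scale. The difference in Act was -0.04 without Act NS replicate 1, the lowest library, and ran from -0.04 to 0.83 over the alternatives. The difference in WT ran from 0.28 to 1.08, with a limma adjusted p of 0.0515 to 0.654.

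Ccl7, a ligand of Ccr1, Ccr2 and Ccr3, followed Ccl2 closely. It was measured at 584, 1282 and 543 RPKM in WT NS, at 407, 1165 and 773 RPKM in Act NS, at 905, 1542 and 1222 RPKM in WT 5dw and at 1049 and 854 RPKM in Act 5dw. Again the replicate 2 library was highest in the groups that have one, and the tissues overlapped, although the 5dw library was higher than the NS library of the same number in 3 of 3 WT and 2 of 2 Act pairs. The difference was 0.69 in WT (log2, SE 0.40, adjusted p = 0.162) and 0.40 in Act (SE 0.45, adjusted p = 0.486), and with the replicate number as a block the adjusted p in WT was 0.112. In WT it passed the threshold without WT NS replicate 2 (log2FC 1.09, adjusted p = 0.0349) and after median-ratio scaling (log2FC 1.15, adjusted p = 0.0385), against a range of 0.0349 to 0.41 over the alternatives. In Act the difference was -0.0043 without Act NS replicate 1 and at most 0.76 under any alternative.

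Ccl2, Ccl7, Ccl11, Ccl12 and Ccl8 are consecutive protein-coding genes of the plus strand, in that order, within 81.2 kb of chromosome 11 (chr11:82035571-82116799, GRCm38, GENCODE M21). The first pair was highest in both tissues with overlapping ranges, Ccl11 in the middle fell, and Ccl8 at the far end rose. Ccl12, a further Ccr2 ligand, was near the limit of detection, at 0 to 0.243 RPKM in NS and 0.433 to 0.844 RPKM in 5dw, and did not pass the filter. Ccl5 and Ccl9 lie 1.41 Mb further on, on the minus strand, at chr11:83525778-83530518 and chr11:83572919-83578636.

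**Figure D4:**
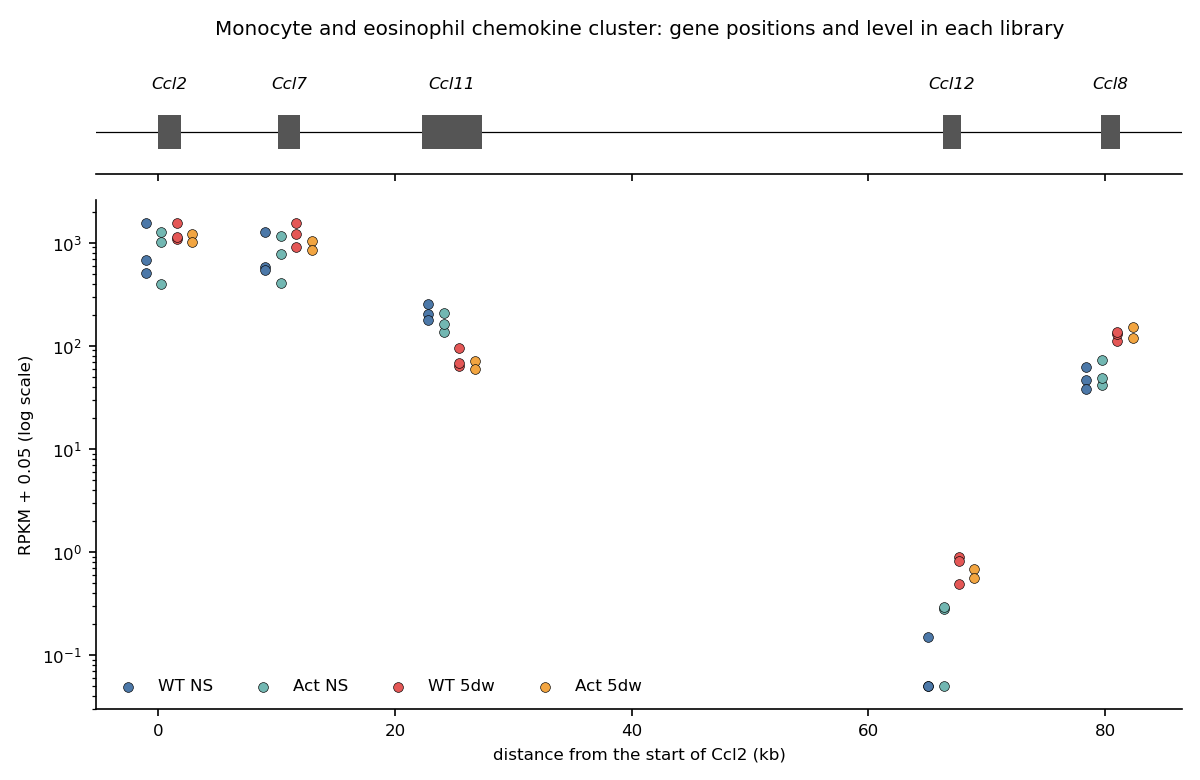
Top, the 5 genes of the chromosome 11 row drawn to scale by distance from the start of Ccl2 in kb. Bottom, RPKM + 0.05 of each gene in each library on a log axis, coloured by group and set apart within a gene for legibility. The 5dw points lie below the NS points for Ccl11 and above them for Ccl12 and Ccl8.

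The pattern of a gene over the 11 libraries was compared with that of all other tested genes by the mean absolute difference of centred log2(RPKM + 0.5), which is 0 for identical patterns. The closest gene to Ccl2 was Ccl7 and the reverse, at 0.140. For Ccl8 it was Mmp3 (0.113), the gene of the matrix metalloproteinase stromelysin-1, followed by Meg3 (0.147) and Sulf1 (0.149). For Ccl11 it was Plpp3 (0.083), a lipid phosphatase gene, followed by Metrnl (0.099) and Igsf1 (0.114). Ccl2 was followed by Dusp10 (0.175) and Spsb1 (0.202), and Ccl7 by Tifa (0.180) and Mt2 (0.185). These are descriptions over 11 libraries that share the split between NS and 5dw.

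Ccl19 showed the steepest difference of the 10 genes. It binds Ccr7 and is made by stromal cells of lymphoid tissue. WT NS libraries had 43.4, 28.0 and 46.5 RPKM and WT 5dw libraries 2.35, 2.26 and 2.29 RPKM. Act NS libraries had 37.2, 35.2 and 55.3 RPKM, and Act 5dw libraries 1.01 and 1.35 RPKM. The lowest NS value was more than 10 times the highest 5dw value. By limma the level was 13.9-fold lower in WT 5dw (log2FC -3.79, SE 0.21, adjusted p = 7.97e-07) and 25.2-fold lower in Act 5dw (log2FC -4.66, SE 0.24, adjusted p = 1.02e-06). It moved from rank 905 by mean level in NS to rank 8161 in 5dw.

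Of the 31-base stretches of the Ccl19 transcripts (chr4:42754525-42756577, minus strand), 58.8% occur in other annotated genes, mainly the copies Gm2564, Ccl19-ps3, Gm12407 and Ccl19-ps1, so that the assignment of reads to Ccl19 itself is uncertain. The most abundant copies were also lower in every 5dw library. Ccl19-ps1 was listed at 7.05 to 14.4 RPKM in NS and 0.158 to 1.26 RPKM in 5dw, and Gm2564 at 6.50 to 17.4 RPKM in NS and 0.276 to 1.39 RPKM in 5dw. The genes with the most similar pattern to Ccl19 were Hmcn2 (0.267), Slco2b1 (0.271) and Cdh4 (0.305). The measure is not scaled to the size of a gene's change, so these values cannot be compared with those of Ccl11.

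Cx3cl1, the ligand of Cx3cr1, also fell, at a level 1 order of magnitude lower. It had 3.69, 2.78 and 2.33 RPKM in WT NS and 0.788, 0.870 and 1.19 RPKM in WT 5dw. In Act it had 3.51, 3.23 and 4.67 RPKM in NS and 0.460 and 0.821 RPKM in 5dw. The tissues did not overlap, and the values rest on 192 to 398 reads per NS library and 35 to 171 reads per 5dw library. Levels were 2.35-fold lower in WT 5dw (log2FC -1.23, SE 0.20, adjusted p = 4.54e-04) and 3.78-fold lower in Act 5dw (log2FC -1.92, SE 0.22, adjusted p = 9.12e-05). The pseudocount of 0.5 is close to the 5dw values, so that these fold changes understate the ratio of the levels. In 5dw only WT replicate 3 reached 1 RPKM, so a lower level in wounds is part of how Cx3cl1 passed the filter. Rhbdl3 (0.132), Batf2 (0.149) and Sun2 (0.162) had the most similar patterns.

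Ccl20, the ligand of Ccr6 and a product of epithelial cells, separated the NS libraries from each other. It was at 4.83 and 5.64 RPKM in WT NS replicates 2 and 3 and at 3.07 and 4.14 RPKM in Act NS replicates 2 and 3. In contrast, WT NS replicate 1 had 0.335 RPKM and Act NS replicate 1 had 0.676 RPKM, which lie within the 5dw range of 0.418 to 0.796 RPKM. The difference was -1.59 in WT (log2, SE 0.69, adjusted p = 0.0669) and -1.28 in Act (SE 0.77, adjusted p = 0.195), and neither passed the threshold. Without WT NS replicate 1 both did (log2FC -2.52, adjusted p = 1.80e-03 in WT, and log2FC -1.28, adjusted p = 0.0444 in Act), and without Act NS replicate 1 the WT comparison did (adjusted p = 0.0443). With the replicate number as a block it passed in WT (log2FC -1.59, adjusted p = 0.0404) and not in Act (adjusted p = 0.160). The ranges over the alternatives were 1.80e-03 to 0.239 in WT and 0.0444 to 0.451 in Act.

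Both NS replicates 1, which had little Ccl20, also had the least keratinocyte transcripts in NS. The summed level of the 10 keratinocyte markers was 989 RPKM in WT NS replicate 1 and 1058 RPKM in Act NS replicate 1, against 1644 to 3870 RPKM in the other 4 NS libraries. Within these 4, Ccl20 did not follow the sum. Sums of 1644, 1805, 2507 and 3870 RPKM went with 4.83, 5.64, 3.07 and 4.14 RPKM of Ccl20. In 5dw the keratinocyte sum was 156, 314 and 1386 RPKM in WT and 353 and 423 RPKM in Act. WT 5dw replicate 3, with 1386 RPKM of keratinocyte transcripts, had 0.635 RPKM of Ccl20. The part of these transcripts in the Ccl20 values was not tested. Klk8 (0.284), the gene of an epidermal kallikrein, was the closest in pattern to Ccl20, followed by Adgrf2 (0.290) and Msmo1 (0.304). For Ccl19 and Cx3cl1, the same library, WT 5dw replicate 3, had 2.29 and 1.19 RPKM. The part of keratinocyte transcripts in these values was not tested either. Nor was that of the dendritic, pericyte, endothelial, neutrophil and T cell markers, whose sums also separated NS from 5dw.

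**Figure D5:**
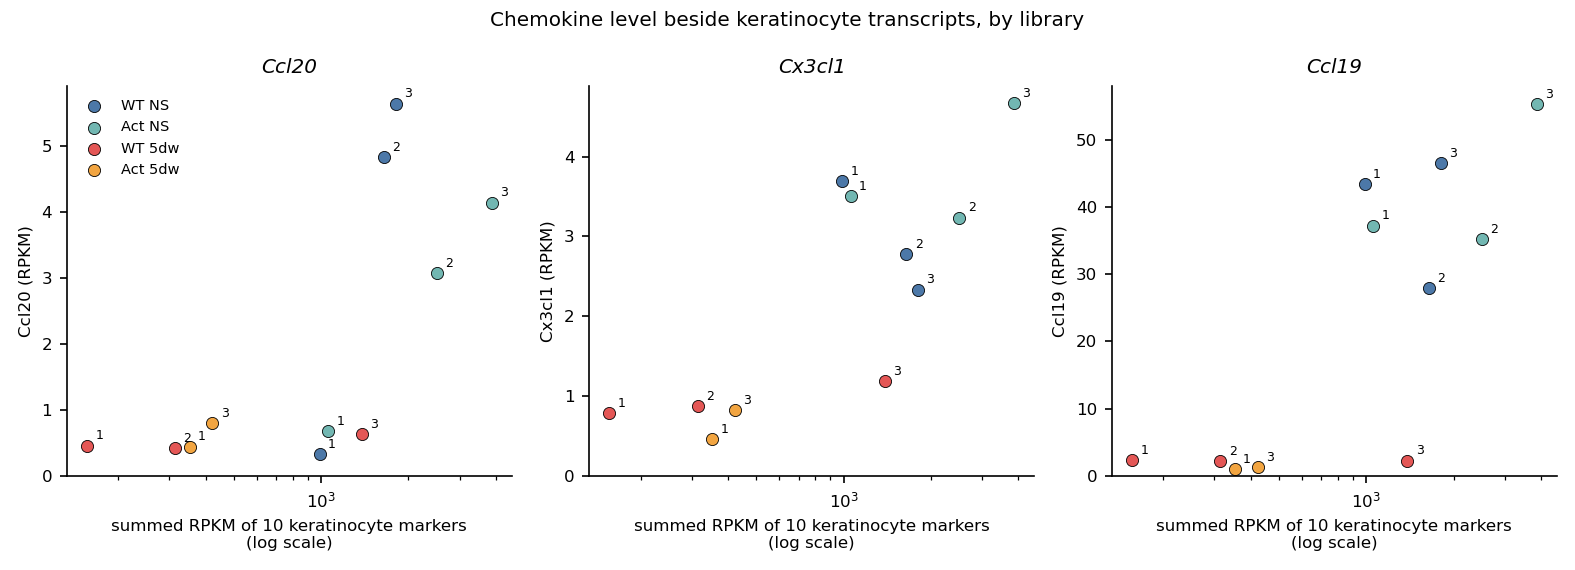
Each point is 1 library, numbered by replicate. The horizontal log axis is the summed RPKM of 10 keratinocyte markers and the vertical axis the RPKM of Ccl20, Cx3cl1 or Ccl19. NS replicates 1 lie with the 5dw libraries for Ccl20 but with the other NS libraries for Cx3cl1 and Ccl19.

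The 250 bases before the start of Ccl20 (plus strand, chr1:83116516-83116765, RefSeq, GRCm38.p6) are shown for the NF-kB motif in capitals, 80 to 71 bases before the start. Such a motif was present in 7.25% of the 32851 windows searched. A match of this kind is a run of letters and not a measured binding site.
Ccl20: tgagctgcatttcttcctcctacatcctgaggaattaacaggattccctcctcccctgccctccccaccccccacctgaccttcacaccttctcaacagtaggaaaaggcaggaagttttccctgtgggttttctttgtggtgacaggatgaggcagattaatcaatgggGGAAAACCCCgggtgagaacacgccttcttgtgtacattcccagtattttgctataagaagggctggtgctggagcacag

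Ccl9, which binds Ccr1, was measured at low level and lay near the threshold. It had 0.859, 0.423 and 1.22 RPKM in WT NS, 1.02, 0.245 and 0.457 RPKM in Act NS, 1.48, 1.65 and 1.48 RPKM in WT 5dw and 1.34 and 1.06 RPKM in Act 5dw. Within each genotype the tissues did not overlap, as was the case for 66.4% (WT) and 64.2% (Act) of all genes tested, but the highest WT NS library exceeded the lowest Act 5dw library. The difference of 0.66 in WT (log2, SE 0.27, adjusted p = 0.0566) and of 0.73 in Act (SE 0.30, adjusted p = 0.0713) lay just outside the threshold. With the replicate number as a block it was called in WT (adjusted p = 0.0409) and not in Act (adjusted p = 0.0673), and on median-ratio scaled values in both (log2FC 0.97 and 0.94, adjusted p = 0.0152 and 0.0303) as well as after quantile normalization (log2FC 1.19 in both, adjusted p = 0.0128 and 0.0227). In all, 8 of 19 alternatives called it in WT and 4 of 19 in Act. In WT these included a pseudocount of 1 (adjusted p = 0.0462), a fit of only the groups compared (0.0360) and leaving out WT NS replicate 3 (adjusted p = 0.0297), Act NS replicate 1 (0.0237) or Act NS replicate 2 (0.0400), within a range of 0.0128 to 0.200, and in Act on leaving out Act NS replicate 1 (0.0111) or WT NS replicate 2 (0.0452), within a range of 0.0111 to 0.266. Tnfrsf26 (0.155), Fbxo17 (0.172) and Mpzl1 (0.199) were closest in pattern.

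The 250 bases before the start of Ccl9 (minus strand, chr11:83578637-83578886, RefSeq, GRCm38.p6) are printed because they held letters of 3 of the 5 motifs. In capitals are TATAAA on either strand, an AP-1 match that ends 47 bases before the start and an NF-kB match that ends 26 bases before it. AP-1 letters were found in 6.75% of all windows.
Ccl9: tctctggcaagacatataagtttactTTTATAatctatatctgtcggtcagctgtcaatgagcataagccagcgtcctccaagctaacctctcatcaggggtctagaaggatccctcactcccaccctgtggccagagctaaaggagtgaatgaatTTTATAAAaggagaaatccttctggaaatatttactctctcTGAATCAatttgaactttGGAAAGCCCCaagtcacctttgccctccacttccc

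Ccl5 and Ccl25 were below the filter. Ccl5 (RANTES), a ligand of Ccr1 and Ccr3 and typical of T cells, had 0.330, 0.279 and 0.0701 RPKM in WT NS and 0.682, 0.618 and 0.779 RPKM in WT 5dw. In Act it had 0.174, 0.389 and 0.181 RPKM in NS and 0.152 and 0.488 RPKM in 5dw, which overlapped. In a fit of all 26465 genes with any reads, WT 5dw exceeded WT NS by 0.73 (log2, SE 0.20, adjusted p = 0.0192), and Act 5dw and Act NS differed by 0.11 (SE 0.22, adjusted p = 0.795). By the estimated totals the WT 5dw libraries were the deepest, with 23 to 29 reads of Ccl5 against 2 to 12 in the others. The T cell and NK cell markers, all but Cd3e under 1 RPKM, also differed. They summed to 3.27 to 34.5 RPKM in NS, 75.7 to 106 RPKM in WT 5dw and 57.3 to 59.2 RPKM in Act 5dw. The part of such cells in the Ccl5 values was not tested. Ccl25, a ligand of Ccr9, had 0.401 to 0.724 RPKM in NS and 0.406 to 0.590 RPKM in 5dw, with differences of -0.10 in WT (95% CI -0.44 to 0.23) and 0.00 in Act (95% CI -0.37 to 0.38).

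None of the tested members was called between the genotypes. Between Act NS and WT NS, the unpaired limma fit called 0 of 8, against 0.0167% of all genes. In that fit 0 of 8 had an unadjusted p under 0.05, as 824 of 11979 genes did. Between Act 5dw and WT 5dw it called 0 of 8, against 0.0334% of all genes, with 1 of 8 and 386 of 11979 genes at an unadjusted p under 0.05. The interaction of wounding and genotype called 0 of 8 and 0% of all genes, while 2 of 8 members and 400 of 11979 genes had an unadjusted p under 0.05. By limma-voom on reads, the 3 comparisons called 0 members and found 0 at an unadjusted p under 0.05, with 758, 314 and 311 of 11607 genes under it for NS, 5dw and the interaction. The smallest groups hold 2 and 3 libraries, and the 95% intervals of Ccl2 (-1.29 to 0.96) and Ccl20 (-1.55 to 1.84) in 5dw include a difference of 1 on the log2 scale in at least 1 direction.

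The values nearest to a genotype difference were those of Ccl19. The Act 5dw libraries (1.01 and 1.35 RPKM, 18 and 30 reads) lay below the WT 5dw libraries (2.26 to 2.35 RPKM, 76 to 81 reads), whereas the NS libraries of the genotypes overlapped. Ccl9 (1.06 and 1.34 RPKM in Act 5dw, 1.48 to 1.65 RPKM in WT 5dw) and Ccl5, which was below the filter, did not overlap between the genotypes in 5dw either. Of all genes tested, 23% did not overlap between these groups, and 2 of the 8 tested members (Ccl19 and Ccl9) is near that background. For Ccl9 the difference was -0.26 (log2, SE 0.30, adjusted p = 1). For Ccl19 the difference in 5dw was -0.74 (log2, SE 0.24, unadjusted p = 0.00949, adjusted p = 1), and the interaction was -0.86 (SE 0.32, unadjusted p = 0.0203, adjusted p = 0.999). For Cx3cl1 the interaction was -0.69 (SE 0.29, unadjusted p = 0.0402, adjusted p = 0.999), with overlapping libraries in both tissues. For Ccl8 it was -0.03 (95% CI -0.79 to 0.73) and for Ccl11 0.14 (95% CI -0.55 to 0.84). In NS, Ccl11 was lower in Act than in WT for every replicate number. The values were 135 and 205, 206 and 254, and 164 and 179 RPKM. Its difference was -0.34 (log2, 95% CI -0.81 to 0.12), and no alternative called it (lowest limma adjusted p = 0.578).

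Receptors for these chemokines were hardly detected in the sorted cells. All 12 CC, CX3C and XC receptors stayed under 1 RPKM in every library, the highest being Ccr4 at 0.547 RPKM. Among them the maxima were 0.289 RPKM for Ccr1, 0.0503 for Ccr2, 0.104 for Ccr3, 0.0255 for Ccr6, 0.117 for Ccr7, 0.0377 for Ccr8, 0.167 for Ccr9 and 0.0636 RPKM for Cx3cr1. None was tested.

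Atypical receptors, which bind chemokines without G-protein signalling and can remove them, were detected. Of 5 listed, 4 were tested, and 2 were called lower and 0 higher in both wounding comparisons, beside 48.8% (WT) and 36.5% (Act) of all genes called lower. Ackr1, which binds Ccl2, Ccl5, Ccl7 and Ccl11 among others, was at 37.3 to 44.5 RPKM in NS and 4.33 to 13.2 RPKM in 5dw (log2FC -2.40 in WT, adjusted p = 4.30e-05, and -2.76 in Act). Ackr2, a scavenger of inflammatory CC chemokines, was at 3.72 to 5.82 RPKM in NS and 0.317 to 1.46 RPKM in 5dw (log2FC -2.18 in WT and -2.08 in Act), and since only 1 5dw library reached 1 RPKM, its level in NS is part of how it passed the filter. The part of other cell types whose markers separated the tissues was not tested for either receptor. Ackr3, a receptor for Cxcl12, stood at 101 to 214 RPKM in NS and 155 to 235 RPKM in 5dw and was not called. Ccrl2 was not called either (log2FC -0.23 and -0.32). Ackr4, which scavenges Ccl19 and Ccl25, was under the filter at 0.132 to 0.296 RPKM in NS and at most 0.0295 RPKM in 5dw.

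Of the other CC and XC ligands, 2 of 13 passed the filter and were tested. Ccl27a, an epidermal chemokine, was lower in both genotypes (3.06 to 9.47 RPKM in NS, 0.412 to 0.636 RPKM in 5dw, log2FC -2.83 and -2.40). Of the 10 keratinocyte markers, 7 were called lower in each comparison and 1 was higher in WT, beside 48.8% and 36.5% of all genes lower, and 5 were lower on scaled values, beside 22.2% and 20.8% of all genes. Ccl21a, another Ccr7 ligand, was called lower in WT (log2FC -1.87, adjusted p = 0.0114) but not in Act (log2FC -0.53, adjusted p = 0.484), and this call was lost with quantile normalization (adjusted p = 0.113, range over the alternatives 2.07e-03 to 0.113). Its WT NS value rested on 1 library with 7.75 RPKM against 0.801 and 1.74 RPKM. No 5dw library reached 1 RPKM of Ccl27a or Ccl21a, so that both passed the filter through NS alone and their lower level in wounds is part of how they passed.

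Among 8 proteases that trim or shed chemokines, 7 were tested. In WT 3 were higher and 2 lower, and in Act 3 were higher and 1 lower, with a median log2FC of 0.39 and 0.46, beside the shares over all genes of 9.45% higher and 48.8% lower in WT and of 9.04% and 36.5% in Act. On median-ratio scaled values 5 were higher in either genotype and 1 (WT) or 0 (Act) lower, where 22.4% and 19.9% of all genes were higher and 22.2% and 20.8% lower. Mmp2, a gelatinase that truncates Ccl7, was at 612 ± 110 RPKM in WT NS and 840.1 ± 63.8 RPKM in WT 5dw (SD, n = 3, log2FC 0.47, adjusted p = 0.0208), a call lost in 5 of 20 alternatives. These were the fit with no filter (adjusted p = 0.0953) and those without WT NS replicate 2 (0.0581) or 3 (0.0826) and without WT 5dw replicate 1 (0.0578) or 2 (0.0724), and in Act the call was lost with no filter (0.0522) and without Act 5dw replicate 1 (0.0710), where the 1 library left is assumed to vary like the other groups. Mmp3 rose from 142 ± 29.7 to 437 ± 23.6 RPKM (SD, n = 3, log2FC 1.64, adjusted p = 1.73e-04) in WT and by a log2FC of 1.28 in Act. Mmp14 was not called with RPKM as deposited (log2FC 0.39 and 0.46) but was on scaled values (log2FC 0.84 and 0.81, adjusted p = 0.00672 and 0.0155).

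The 12 NF-kB subunits and feedback inhibitors, the family through which cytokines induce many chemokine genes, gave 1 higher and 7 lower in WT and 1 higher and 6 lower in Act, with a median log2FC of -0.54 and -0.73, beside -0.40 and -0.31 over all genes, of which 48.8% (WT) and 36.5% (Act) were lower. This balance depended on the scaling, since median-ratio scaled values gave 3 higher and 2 lower in WT and 1 higher and 3 lower in Act, where 22.4% and 19.9% of all genes were higher and 22.2% and 20.8% lower. Nfkbiz was the higher one (log2FC 0.77 in WT and 0.89 in Act), and Nfkbia (395 ± 32.1 and 410.4 ± 22.8 RPKM in WT NS and WT 5dw) and Tnfaip3 were not called, except Nfkbia in WT on scaled values (log2FC 0.51, adjusted p = 0.0157). Of 11 receptors and adaptors for TNF, IL-1, IL-17, lymphotoxin and TLR ligands, 6 were lower in WT and 8 in Act, against 2 and 4 on scaled values (22.2% and 20.8% of all genes), and 0 were higher. The share over all genes called lower was 48.8% in WT, near that of this list, and 36.5% in Act. The median log2FC of this list was -0.55 in WT and -0.78 in Act, beside -0.40 and -0.31. Myd88 was among them (log2FC -0.87 and -1.04), but not on scaled values in WT (log2FC -0.42, adjusted p = 0.118, range over the alternatives 2.16e-03 to 0.118), and Tnfrsf1a and Il1r1 were not called.

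In the IL-4 and IL-13 axis, which induces Ccl11 in fibroblasts, 1 of 5 genes was higher and 1 lower in either genotype, beside 9.45% higher and 48.8% lower of all genes in WT and 9.04% and 36.5% in Act. The higher one, Il13ra2 (0.122 to 0.846 RPKM in NS, 3.86 to 6.37 RPKM in 5dw), passed the filter through 5dw alone, so that its call is no result about the list. On scaled values 1 was higher in WT and 2 in Act (22.4% and 19.9% of all genes), and 0 were lower (22.2% and 20.8%). Il4ra (log2FC -0.20 and -0.32), Il13ra1 (-0.04 and 0.31) and Socs1 (-0.03 and -0.29) were not called, except Il13ra1 in Act on scaled values (log2FC 0.67, adjusted p = 0.0198). Of 11 glycosaminoglycan carriers, on which chemokines are held, 3 were higher and 5 lower in WT and 2 higher and 5 lower in Act, with a median log2FC of -0.41 and -0.33. Over all genes, 9.45% were higher and 48.8% lower in WT and 9.04% and 36.5% in Act, with medians of -0.40 and -0.31. Scaled values gave 5 higher and 4 lower in WT and 5 higher and 3 lower in Act, beside 22.4% higher and 22.2% lower of all genes in WT and 19.9% and 20.8% in Act. Gpc3 (285 ± 30.2 RPKM in WT NS and 101 ± 25.9 RPKM in WT 5dw, log2FC -1.52) and Sdc4 (104 ± 26.9 and 34.9 ± 2.84 RPKM, log2FC -1.53) were lower in both genotypes, and Hspg2 was not called, except on scaled values (log2FC 0.81 and 0.79, adjusted p = 0.00415 and 0.00930).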

How the data were processed

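Deposited values were gene-level RPKM for 11 libraries of sorted fibroblasts. According to the study's methods, the authors aligned single-end 100 bp reads to GRCm38 in the CLC Genomics Workbench, normalized the reads per gene to RPKM, and excluded a sample of Act 5dw. By the remaining labels that sample was replicate 2. The members and lists were chosen with earlier results of these data known. All members, and from each pathway list the counts, the 3 genes with the highest mean RPKM and receptors for a member (some are not reported here), are named, together with the 3 tested genes closest in pattern to each tested member. Other genes that illustrate copies, neighbours (Gm2564, Ccl19-ps1, Cd3d, Cd3g) or marker and pathway counts (Il13ra2, S100a8, S100a9, Cd68, Csf1r, Lyz2, Epcam, Pecam1) were named after their values were seen.

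Genes with at least 1 RPKM in at least 2 libraries (11979 of 47643) were tested on log2(RPKM + 0.5) with limma 3.58.1 in R 4.3.3 (trended prior, 1 mean per group, 7 residual degrees of freedom), and p-values were adjusted by Benjamini-Hochberg within a comparison. Fold changes are on that scale and understate changes of low genes. The labels do not say more of the replicates than that each pools 3 mice, so p-values measure the spread between pools. Libraries of 1 group differed by 43.4 to 127 times the sampling noise per gene (chi-square per degree of freedom), so none was a duplicate. The deviations from the group means of same-numbered libraries correlated at 0.109 to 0.188 over the 3 pairs of WT NS and WT 5dw. For WT NS and Act NS this was 0.334 to 0.554. All were above 0.1, so the numbers may pair these groups. Over all 15 same-numbered pairs, however, 12 were above 0.1 and the lowest was -0.124. Of the pairs with different numbers, WT 5dw 2 and Act 5dw 1 reached 0.313. Pairing was therefore not settled. The main tests did not use the numbers, and a replicate block was fitted as an alternative. The comparisons with Act 5dw have 2 pairs each, of which 1 was above 0.1, and were not taken as paired. RPKM multiplied by exon length (GENCODE M21) and a fitted library total gave values near whole reads for 68.9% to 71.6% of tested genes. For the members, the values used lay at most 0.0404 from a whole number. Of the members, Ccl25 and Cx3cl1 needed lengths of 2667 and 3708 bases instead of 7445 and 3930. These reads were used for depth, for read numbers and for limma-voom as an alternative; since reads carry no molecular identifiers, they bound counting error only. Alternatives were pseudocounts of 0.1 and 1, no filter, a filter of 5 RPKM, median-ratio scaling, quantile normalization, a replicate block, only the groups compared, limma-voom, and leaving out each library.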

Additional observations from a re-analysis of the deposited data

How the results depend on the processing

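Each result was recomputed under up to 20 alternatives. Ccl8, Ccl11, Ccl19 and Cx3cl1 were called in the same direction in both wounding comparisons under every alternative that tested them (the filter of 5 RPKM left out Cx3cl1, Ccl9 and Ccl20). For Cx3cl1, a lower level in wounds is part of how it passed the filter of 1 RPKM. The number of members called was 4 in each wounding comparison and ran from 3 to 6 in WT and from 3 to 5 in Act over the alternatives. It ran from 4 to 6 (WT) and from 4 to 5 (Act) when 1 library was left out. Where this left 1 library of Act 5dw, that library was assumed to vary like the other groups. Among the pathway genes, calls were gained by leaving out WT NS replicate 1 (Mmp14, adjusted p = 0.00966 in WT and 0.0322 in Act), WT NS replicate 2 (Tnfrsf1a, 0.0236 in WT) and Act NS replicate 1 (Mmp14, 0.0492, Tnfrsf1a, 0.0466, and Il4ra, 0.0472, in Act). No member was called in a genotype comparison or the interaction under any alternative. Over the 777 recomputed fold changes of single members, 759 kept their side of the threshold, 18 passed it (Ccl7, Ccl9 and Ccl20) and 0 called values were reversed (Ccl2 and Ccl7, not called in Act, turned to -0.04 and -0.0043 without Act NS replicate 1), and the cause was not tested. Over all genes, a filter of 5 RPKM, with fewer genes tested, gave 695 higher and 3076 lower in WT against 1132 and 5846, and 702 higher and 2402 lower in Act against 1083 and 4376, and leaving out Act 5dw replicate 3 gave 665 higher and 2844 lower in Act.

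With a replicate block (correlation 0.12), 6 members were called in WT, adding Ccl9 (adjusted p = 0.0409) and Ccl20 (adjusted p = 0.0404), and 4 in Act. No other call of a member changed with the block. The 2 libraries of Act 5dw and read numbers under 30 for Ccl5, and under 40 for Ccl20 in 5dw, limit what could be detected there.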
